A study of Mus musculus with 18 samples.

Results

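The urea cycle genes described here are 8 of the 54532 genes in the FPKM table of this liver series, chosen by name: Cps1, Otc, Ass1, Asl and Arg1, which encode the 5 enzymes of the cycle, Nags, which makes its activator, and the carriers Slc25a15 and Slc25a13. All 8 were found, and all 8 passed the filter on low values (a mean of at least 1 FPKM over the 18 mice). FPKM divide a gene's fragments by its length and by a library size. The deposited length can exceed that of a transcript: it is 2414 bases for Ass1, whose longest protein-coding transcript has 1696. Levels and ratios between genes are therefore approximate, while the length of a gene is the same in all mice. The library size behind the deposited values was not the plain total: it was 0.9325 to 1.1414 times the fragments on genes, with group medians of 0.979 in NC, 1.11 in HFD and 1.01 after SZ-A, and comparisons between mice depend on that choice.

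The liver turns ammonia, the nitrogen waste of amino acid breakdown, into urea. The first 2 steps run in the mitochondria of hepatocytes around the portal vein and the remaining 3 in their cytosol, so the cycle also needs carriers that move ornithine in and aspartate out. The ammonia that passes these cells is caught as glutamine by the hepatocytes around the central vein, through glutamine synthetase.

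Liver RNA came from 18 male C57BL/6J mice that were 6 weeks old at the start. Of these, 6 were normal controls (NC) on standard chow, 6 were controls fed a high-fat diet (HFD), and 6 received the same high-fat diet and SZ-A, the alkaloid fraction of Ramulus Mori, the mulberry twig. The high-fat diet ran for 14 weeks before treatment and continued through it. By the study's methods the HFD controls were given saline, and mice were fasted overnight before they were killed. Treatment lasted 6 weeks by the study's methods and 8 weeks by the deposited description, and the dose and route of the sequenced mice are not given in the sources used here. The mouse NC6 stands in NC by its title but carries a high-fat diet among its labels, so calls and counts against NC are given with and without it. Fragments on genes numbered 17163191 to 20493907 per mouse. RNA was measured, not protein, enzyme activity, ammonia or urea.

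Each gene's place is given on GRCm38, and each deposited value covers the exons of 1 protein-coding gene. Cps1 (ENSMUSG00000025991) lies at chr1:67123026-67231259 on the plus strand. Otc (ENSMUSG00000031173) lies at chrX:10252305-10321024 on the plus strand. Ass1 (ENSMUSG00000076441) lies at chr2:31470207-31520672 on the plus strand. Asl (ENSMUSG00000025533) lies at chr5:130011258-130029247 on the minus strand. Arg1 (ENSMUSG00000019987) lies at chr10:24915221-24927484 on the minus strand. Nags (ENSMUSG00000048217) lies at chr11:102145513-102149477 on the plus strand. Slc25a15 (ENSMUSG00000031482) lies at chr8:22375551-22398597 on the minus strand, and Slc25a13 (ENSMUSG00000015112) at chr6:6041218-6217173 on the minus strand. The 8 genes thus sit on 8 different chromosomes.

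The values of Ass1 are uncertain in level because a near-identical copy exists. Gm5424, a processed pseudogene at chr10:62071123-62072362, is 1240 bases long and aligned without a gap to the Ass1 transcript over all 1236 of its coding bases, with 6 differences. The stretch below shows bases 310 to 429 of the Ass1 coding sequence and the same stretch of the copy, from the GENCODE M21 transcripts, with the 2 differing bases in capitals.
Ass1: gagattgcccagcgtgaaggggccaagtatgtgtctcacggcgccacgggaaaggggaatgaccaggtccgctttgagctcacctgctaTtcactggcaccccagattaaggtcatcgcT
Gm5424: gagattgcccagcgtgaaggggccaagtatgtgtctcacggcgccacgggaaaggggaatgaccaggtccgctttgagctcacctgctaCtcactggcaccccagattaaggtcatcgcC
Gm5424 was listed at 517 ± 85.3 FPKM (mean ± SD, n = 6 per group) in NC mice, against 260 ± 25.4 in HFD mice and 252 ± 51.3 with SZ-A, and how the authors' counting shared fragments between both genes was not tested. The exons of Nags overlap those of the antisense gene Gm11586, which was listed at 0.0890 to 0.967 FPKM, and the library kit did not mark strand. No annotated transcript of another gene matched the other 6 members at 90% identity or more over 100 bases.

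Promoter windows were at hand for 5 of the 8 members in RefSeq (GRCm38.p6), and the 250 bases before the start site are shown for Ass1 and Slc25a15, which were lower in HFD than in NC mice, and for Otc, which was not. Capitals mark the GC box GGGCGG and the E-box CACGTG, searched on both strands.
Ass1, chr2:31470020-31470269, plus strand: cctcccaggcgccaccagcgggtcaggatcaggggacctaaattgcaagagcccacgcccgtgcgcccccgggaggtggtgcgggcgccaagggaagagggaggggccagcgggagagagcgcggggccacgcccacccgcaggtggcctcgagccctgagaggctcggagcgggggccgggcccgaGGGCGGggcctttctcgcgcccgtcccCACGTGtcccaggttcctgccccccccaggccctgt
Slc25a15, chr8:22398622-22398871, minus strand: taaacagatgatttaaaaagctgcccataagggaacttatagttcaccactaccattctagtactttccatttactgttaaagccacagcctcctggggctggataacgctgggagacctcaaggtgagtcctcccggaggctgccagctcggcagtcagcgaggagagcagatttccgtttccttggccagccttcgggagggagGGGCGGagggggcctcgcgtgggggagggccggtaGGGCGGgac
Otc, chrX:10252055-10252304, plus strand: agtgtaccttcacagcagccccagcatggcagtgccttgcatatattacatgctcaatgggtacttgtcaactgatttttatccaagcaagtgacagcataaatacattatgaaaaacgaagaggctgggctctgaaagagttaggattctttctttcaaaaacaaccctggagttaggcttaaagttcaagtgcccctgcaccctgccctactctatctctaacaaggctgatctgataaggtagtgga
The Ass1 window was 75.6% G or C with 23 CG pairs, and the Slc25a15 window 57.6% with 11. The Otc window was 43.6% G or C with 1 CG pair, beside medians of 52.4% and 6 pairs over 32851 windows. The GC box stood 1 time in the Ass1 window, 2 times in that of Slc25a15 and 0 times in that of Otc, and 32.7% of all windows held it. The E-box stood 1 time in the Ass1 window, and 6.02% of all windows held it. Of the other members with a window, Nags held 2 GC boxes and no E-box, and Slc25a13 held 1 E-box and no GC box. The start of Ass1 in the deposited table lies 63 bases from the RefSeq start, and that of Slc25a15 24 bases. These are descriptions of the letters in the windows.

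In NC livers the members spanned a wide range of levels. Ass1 was highest at 1258 ± 274 FPKM (mean ± SD, n = 6), followed by Cps1 at 1181 ± 288 and Arg1 at 982 ± 414. Asl stood at 326 ± 157, Slc25a15 at 112 ± 18.9, Slc25a13 at 104 ± 11.4, Otc at 67.5 ± 12.0 and Nags at 24.3 ± 3.39 FPKM. Among neighbours in this order, the ranges over mice did not overlap between Asl and Slc25a15, between Slc25a13 and Otc, and between Otc and Nags. The other neighbours overlapped. Together the 8 genes took 1.44% ± 0.327 (SD, n = 6) of all fragments on genes in NC livers.

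HFD was compared with NC for the effect of the diet. In HFD mice 7 of the 8 members were lower than in NC mice (limma, called at an adjusted p under 0.05 with more than 1.2-fold change), where 9.49% of all 10216 genes tested were called lower and 20.2% were called in either direction. With all libraries rescaled to the same FPKM sum, 5 members were called lower, beside 3.26% of all genes, and 1 higher, beside 20.8% instead of 10.7%. At an unadjusted p under 0.05 all 8 members passed, beside 34.8% of all genes. Otc, the remaining member, was not called. The median log2 fold change of the members was -1.11, beside -0.03 over all genes tested. The share of fragments on the 8 genes was 0.674% ± 0.0472 in HFD mice. Without NC6, where 9.44% of all genes were called lower and 10.4% higher, the same 7 members were called lower, and Otc was called higher. Their log2 fold changes without it were -1.49 for Cps1, -1.13 for Ass1, -2.12 for Asl, -1.26 for Arg1, -1.22 for Slc25a15, -0.37 for Slc25a13 and -0.34 for Nags, with limma adjusted p of at most 0.0379. Ranges over mice are described gene by gene below. The share of all genes tested whose ranges did not overlap is not given, so how unusual a lack of overlap is cannot be told. In bulk liver, fewer cells of a type and less RNA per cell cannot be told apart.

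**Figure D1:**
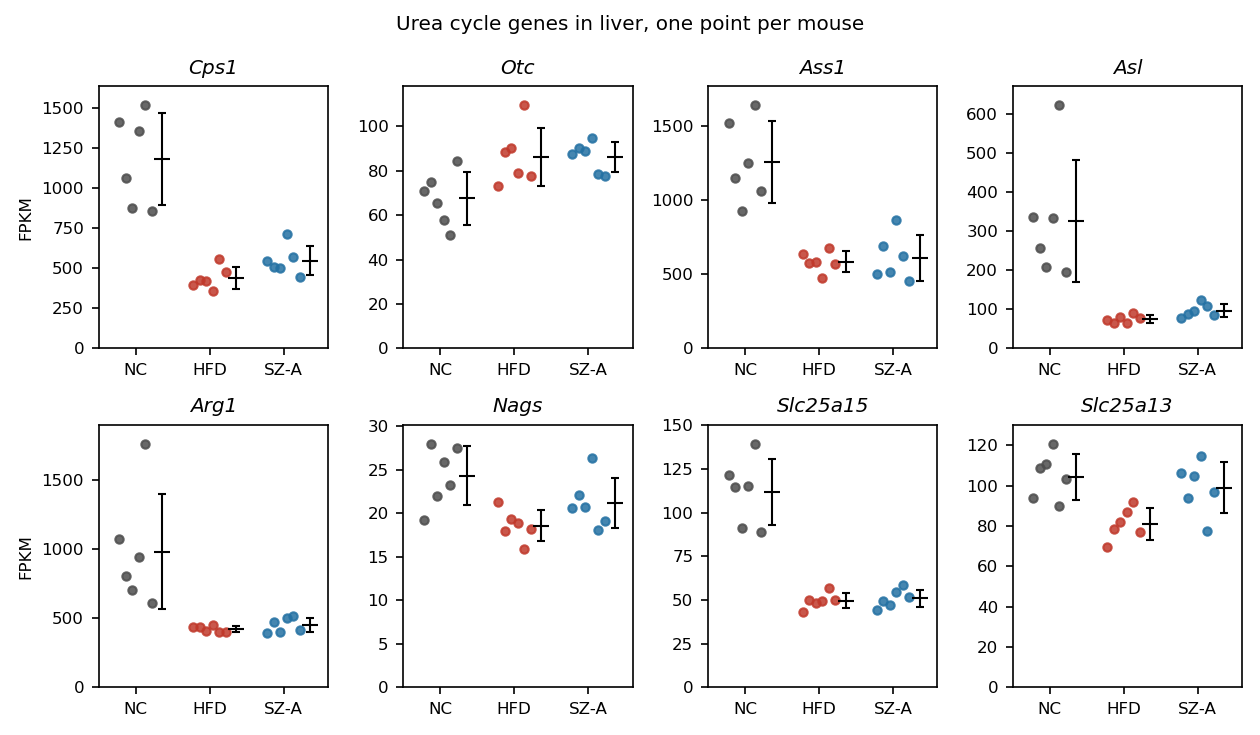
FPKM of the 8 urea cycle genes (vertical axis, linear, from 0) in each mouse of NC, HFD and SZ-A (horizontal axis), with the group mean and SD in black beside the points (n = 6 each). Every HFD and SZ-A mouse lies below every NC mouse for Cps1, Ass1, Asl, Arg1 and Slc25a15, while the ranges overlap for Otc, Nags and Slc25a13. The share of all genes tested whose ranges do not overlap is not given.

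Among the mitochondrial enzymes, Cps1 and Otc parted. Cps1 makes carbamoyl phosphate from ammonia and is the rate-controlling step of the cycle. Cps1 was measured at 855 to 1517 FPKM around a median of 1211 in NC, at 358 to 558 around 425 in HFD and at 445 to 712 around 527 in SZ-A. All 6 HFD and all 6 SZ-A mice lay below the lowest NC mouse. HFD against NC gave a log2 fold change of -1.40 (SE 0.16, limma adjusted p = 0.000152), and the HFD mean was 37.3% of the NC mean.

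Otc joins carbamoyl phosphate to ornithine and lies on the X chromosome. It was measured at 51.2 to 84.6 FPKM around a median of 68.2 in NC, at 73.1 to 109 around 83.7 in HFD and at 77.7 to 94.5 around 88.2 in SZ-A. All 6 HFD mice lay above the NC mean, and 3 lay above the highest NC mouse, which was NC6. The log2 fold change of HFD against NC was 0.36 (95% interval 0.08 to 0.64, limma adjusted p = 0.0638), and without NC6 it was 0.43 (adjusted p = 0.0305). Otc was the 7th member by level in NC and the 4th in HFD mice.

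The ratio of both genes within each mouse separated NC from the other groups. Otc per 100 FPKM of Cps1 was 3.38 to 9.89 in NC mice but 16.2 to 22.01 in HFD mice, and 13.3 to 17.8 after SZ-A. The highest NC value was that of NC6. The ranges of NC did not overlap those of the other groups, while HFD and SZ-A overlapped. How often ratios of other genes lack overlap is not given, for this ratio or those below.

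**Figure D2:**
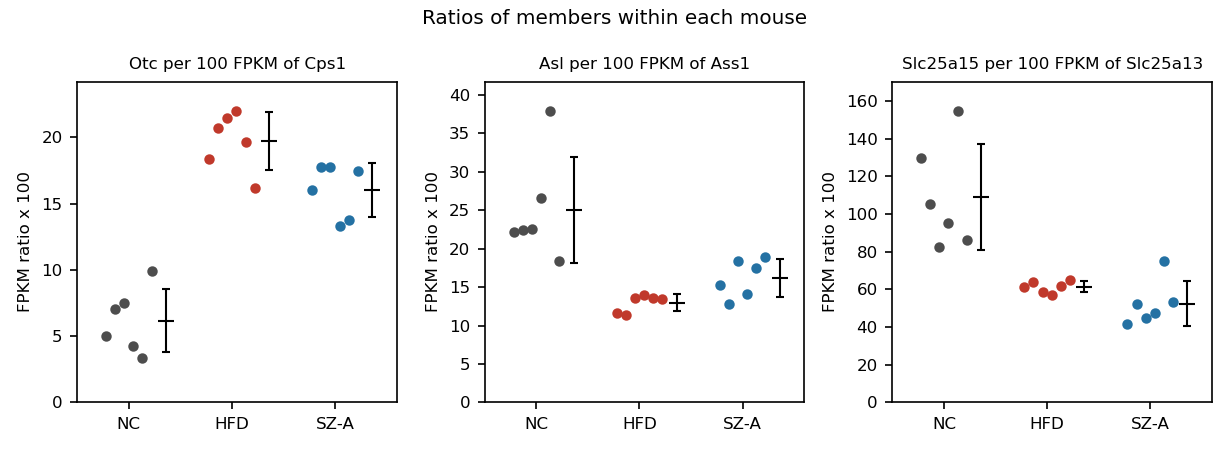
Ratio of 2 members within each mouse, as FPKM of the first per 100 FPKM of the second (vertical axes, linear, from 0), for NC, HFD and SZ-A mice with mean and SD in black (n = 6 each). Otc per Cps1 was 6.18 ± 2.41 in NC mice but 19.7 ± 2.17 in HFD mice and 16.0 ± 2.03 after SZ-A, while Asl per Ass1 and Slc25a15 per Slc25a13 were highest in NC.

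The 3 cytosolic enzymes were all lower in HFD mice. Ass1 joins citrulline and aspartate to argininosuccinate. Ass1 was measured at 929 to 1639 FPKM around a median of 1199 in NC, at 472 to 676 around 581 in HFD and at 453 to 866 around 570 in SZ-A. The log2 fold change of HFD against NC was -1.08 (SE 0.14, limma adjusted p = 0.000282), without overlap between the groups. With the fragments of Gm5424 added to Ass1, an alternative chosen after seeing the data, it was -1.06.

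Asl splits argininosuccinate into arginine and fumarate, and showed the largest difference of the 8 members. It was measured at 195 to 622 FPKM around a median of 296 in NC, at 65.8 to 91.7 around 75.3 in HFD and at 76.9 to 123 around 91.8 in SZ-A. The log2 fold change of HFD against NC was -1.999 (SE 0.23, limma adjusted p = 0.000152), and only 0.235% of the genes tested had a lower value. The highest NC mouse, NC5, lay well above the next at 336 FPKM. Leaving out 1 mouse at a time gave -2.12 to -1.79. Asl per 100 FPKM of Ass1 was 25.0 ± 6.84 in NC and 12.9 ± 1.103 in HFD mice, with no overlap.

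Arg1 cleaves arginine to urea and ornithine. Arg1 was measured at 609 to 1756 FPKM around a median of 876 in NC, at 398 to 448 around 420 in HFD and at 396 to 515 around 445 in SZ-A. HFD against NC gave a log2 fold change of -1.14 (SE 0.20, limma adjusted p = 0.00191). The spread over mice, as SD over mean, was 42.1% in NC and 5.07% in HFD mice.

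Both carriers were lower in HFD mice, by unlike amounts. Slc25a15, which brings ornithine into the mitochondrion in exchange for citrulline, was measured at 89.1 to 139 FPKM around a median of 115 in NC, at 42.9 to 56.8 around 49.9 in HFD and at 44.5 to 58.4 around 50.4 in SZ-A. Its log2 fold change of HFD against NC was -1.16 (SE 0.11, limma adjusted p = 4.10e-05), the smallest p of the 8 members. Slc25a13, known as citrin, exports the aspartate that Ass1 uses. It was measured at 89.7 to 120.5 FPKM around a median of 106 in NC, at 69.8 to 92.1 around 80.1 in HFD and at 77.8 to 115 around 101 in SZ-A. The difference on the log2 scale was -0.36 (SE 0.09, limma adjusted p = 0.0134), with 5 of 6 HFD mice below the lowest NC mouse.

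Nags makes N-acetylglutamate, without which Cps1 is inactive. It was measured at 19.3 to 27.9 FPKM around a median of 24.6 in NC, at 15.9 to 21.2 around 18.5 in HFD and at 18.1 to 26.4 around 20.7 in SZ-A. The log2 fold change of HFD against NC was -0.38 (SE 0.10, limma adjusted p = 0.0185), with 4 of 6 HFD mice below the lowest NC mouse.

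The calls of Nags, Slc25a13 and Otc depended on how the libraries were scaled. With all mice rescaled to the same FPKM sum, which moved the median of all genes from -0.03 to 0.16, Nags (-0.19, limma adjusted p = 0.298) and Slc25a13 (-0.17, adjusted p = 0.235) were no longer called lower and Otc (0.55, adjusted p = 0.0120) was called higher. Relative to the median of all genes, the log2 fold changes under the 5 scalings tried were 0.39 to 0.40 for Otc, -0.35 to -0.34 for Nags and -0.33 for Slc25a13. A scaling shifts all genes of a mouse alike, and subtracting the median removes that shift. The near-equal values therefore follow from the subtraction and cannot show that the calls hold. Cps1, Ass1, Asl, Arg1 and Slc25a15 were called lower under all alternatives run.

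**Figure D3:**
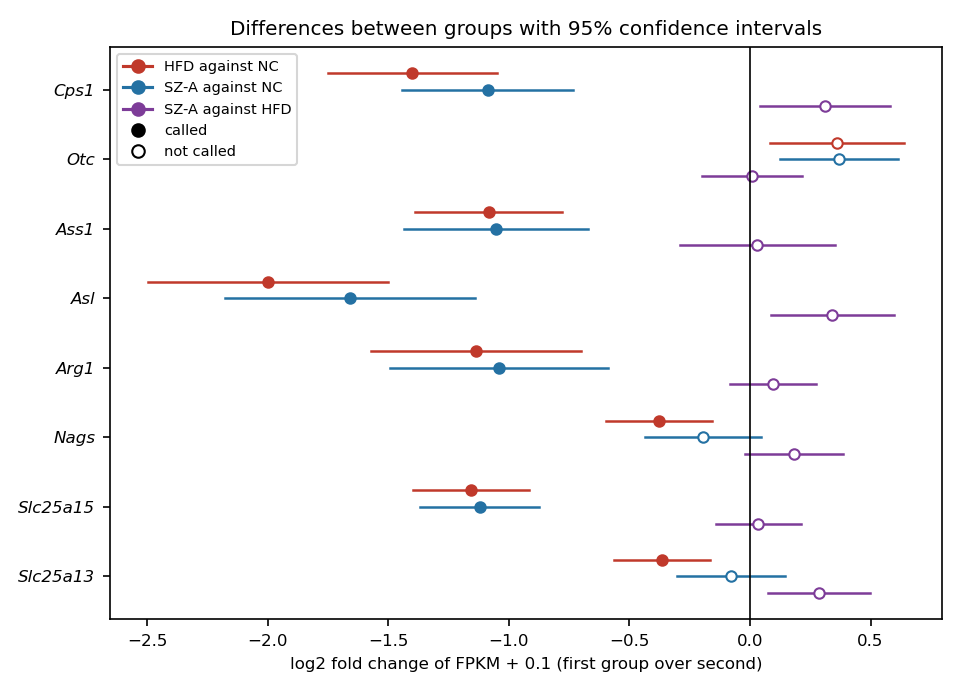
Log2 fold change of FPKM + 0.1 for the 8 members (horizontal axis) in the 3 comparisons, with 95% confidence intervals (limma), filled where called. HFD against NC lies between -1.999 and -0.36 for the 7 called members, and SZ-A against HFD lies between 0.01 and 0.34 with none called. Otc, Ass1, Arg1 and Slc25a15 turn below 0 in SZ-A against HFD with libraries rescaled to the same FPKM sum.

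SZ-A was compared with HFD for the effect of the alkaloids, and the HFD mice are also those of the comparison with NC. None of the 8 members was called in SZ-A against HFD, where 0.147% of all genes tested were called, 0.0783% higher and 0.0685% lower. These are 15 genes, a count that ran from 2 to 49 when 1 mouse was left out and was 218 (10 higher, 208 lower) with libraries at the same FPKM sum, 233 with sample weights and 0 with the replicate block. The study's own count test (DESeq2) at the same thresholds gave many more genes in this comparison. Voom, with median-ratio library sizes, called 26 genes, and with plain library totals 68. The cause of the gap to the study's count was not tested. At an unadjusted p under 0.05, 3 of 8 members passed (Cps1, Asl and Slc25a13), beside 14.8% of all genes tested. Voom on whole fragments also called 0 members. Limma with sample weights called 1, Slc25a13, as higher, beside 1.06% of all genes. All 8 log2 fold changes were above 0 in the deposited scaling, with a median of 0.14 beside 0.03 over all genes, but those of Otc, Ass1, Arg1 and Slc25a15 turned below 0 under a common FPKM sum per mouse.

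The largest differences after SZ-A were in Asl, Cps1 and Slc25a13. Asl was 96.3 ± 16.8 FPKM in SZ-A and 75.6 ± 9.65 in HFD mice, a log2 fold change of 0.34 (95% interval 0.09 to 0.60, limma adjusted p = 0.203), with 6 of 6 SZ-A mice above the HFD mean. Cps1 was 547 ± 91.4 and 441 ± 69.7 FPKM, a log2 fold change of 0.31 (95% interval 0.04 to 0.58, limma adjusted p = 0.267), also with 6 of 6 above. Slc25a13 was 99.1 ± 12.8 and 81.0 ± 7.84 FPKM, a log2 fold change of 0.29 (95% interval 0.08 to 0.50, limma adjusted p = 0.198). In Slc25a13, 5 of 6 SZ-A mice lay above the highest HFD mouse. Nags stood at 0.18 (interval -0.02 to 0.39). With libraries at the same FPKM sum these fell to 0.16 for Asl, 0.13 for Cps1, 0.11 for Slc25a13 and 0.0047 for Nags, none of them called. The remaining members had intervals on both sides of 0: Otc 0.01 (-0.20 to 0.22), Ass1 0.03 (-0.29 to 0.35), Arg1 0.10 (-0.08 to 0.27) and Slc25a15 0.04 (-0.14 to 0.21).

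SZ-A mice were also set against NC, with the NC mice shared by both comparisons. Here 5 of 8 members were called lower, Cps1 (-1.09), Ass1 (-1.05), Asl (-1.66), Arg1 (-1.04) and Slc25a15 (-1.12), where 4.3% of all genes were called lower, 5.31% higher and 9.6% in all. At an unadjusted p under 0.05, 6 of 8 passed, beside 25.5% of all genes. Their means stood at 29.6% (Asl) to 48.5% (Ass1) of the NC means. Otc (0.37, limma adjusted p = 0.0579), Nags (-0.20, adjusted p = 0.290) and Slc25a13 (-0.08, adjusted p = 0.688) were not called. Without NC6, 4.01% of all genes were called lower and 5.26% higher. The 5 members were called lower again, at -1.17 for Cps1, -1.097 for Ass1, -1.78 for Asl, -1.16 for Arg1 and -1.18 for Slc25a15. Otc was then called higher as well (0.44, limma adjusted p = 0.0238), and Nags (-0.16) and Slc25a13 (-0.08) were not called. Slc25a13 stood at 94.9% of the NC mean in SZ-A and 77.6% in HFD mice, and the test of that difference is the SZ-A against HFD value above.

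Mice of 1 group also differed among themselves. After the group means were removed, Cps1, Ass1, Asl, Arg1 and Slc25a15 varied together over the 18 mice, with Pearson r of 0.62 to 0.90, highest for Asl with Arg1. Otc ran against Arg1 (r = -0.60) and Asl (r = -0.41), and Nags and Slc25a13 had r between -0.42 and 0.43 with every other member. The pattern was not shared by all groups: Asl and Arg1 had r = 0.99 over the 6 NC mice, -0.84 over the 6 HFD mice and 0.79 over the 6 SZ-A mice. In the same order, Otc had r of -0.82, 0.65 and 0.23 with Asl, and -0.80, -0.50 and 0.05 with Arg1. These correlations are descriptions, the genes of a mouse share its library and scaling, and among NC mice NC5 was the highest for 5 members and the lowest for 2.

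**Figure D4:**
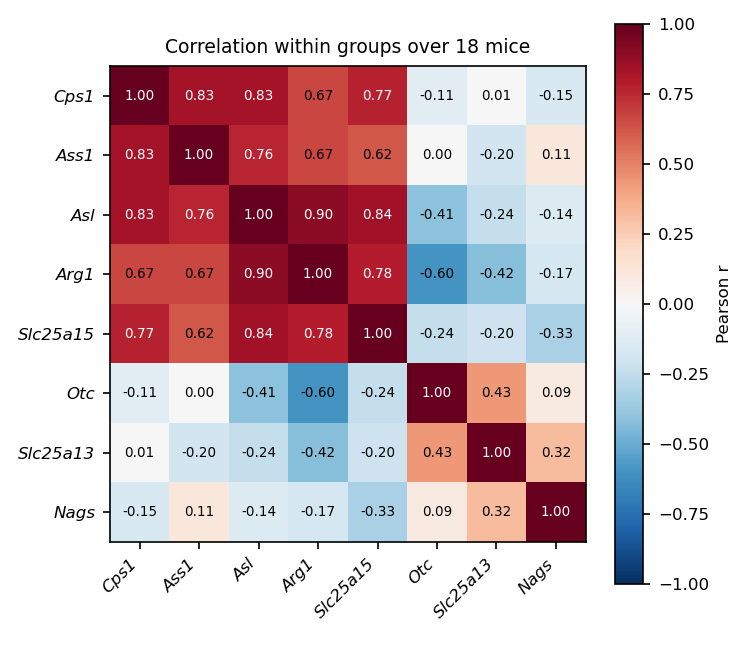
Pearson r between members of log2(FPKM + 0.1) over 18 mice with each group's mean removed (colour scale from -1 to 1, both axes list the members). Cps1, Ass1, Asl, Arg1 and Slc25a15 form a block with r of 0.62 to 0.90, and Otc, Slc25a13 and Nags stand outside it.

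The genes most like the members were found over all 18 mice among 10216 genes. Nearest to the mean of the standardised members were Cth (r = 0.94), which makes cysteine from cystathionine, Gm9826 (0.94) and the ethanolamine kinase Etnk2 (0.93). By single members, Arg1 was nearest to Mat1a (0.99), which makes S-adenosylmethionine, Slc25a15 to Got1 (0.97), Otc to Mug2 (0.92), a murinoglobulin, Slc25a13 to Epb41l4b (0.88) and Nags to Faah (0.84), the fatty acid amide hydrolase. Cps1 and Asl were nearest to each other (0.97), and Ass1 was nearest to its copy Gm5424 (0.96). Group differences are part of these r values.

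Around the cycle, 67 further genes of the pathway were listed by role, 55 of which were tested. In HFD against NC, 7 were called higher and 12 lower, in SZ-A against HFD 0, and in SZ-A against NC 4 higher and 9 lower. Of all genes tested in HFD against NC, 10.7% were called higher and 9.49% lower. The shares of all genes were 0.0783% and 0.0685% in SZ-A against HFD, and 5.31% and 4.3% in SZ-A against NC. The balance depended on scaling. With libraries at the same FPKM sum 15 were called higher and 6 lower in HFD against NC, beside 20.8% and 3.26% of all genes. Voom with plain totals gave 15 and 7, beside 19.7% and 4%. Without NC6 the counts were 6 higher and 11 lower in HFD against NC, beside 10.4% and 9.44% of all genes. In SZ-A against NC they were 3 and 9, beside 5.26% and 4.01% of all genes. The median log2 fold change of the 55 genes in HFD against NC was -0.08, beside -0.03 over all genes. In SZ-A against HFD, 9 of the 55 had an unadjusted p under 0.05 by limma, beside 14.8% of all genes tested.

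Of 23 tested genes of ammonia, glutamine and glutamate handling, 7 were lower and 5 higher in HFD mice (9.49% and 10.7% of all genes). The counts were 8 and 4 without NC6, and 4 and 8 with libraries at the same FPKM sum (3.26% and 20.8% of all genes). Lower were Got1, the cytosolic aspartate aminotransferase (283 ± 134 FPKM in NC and 55.7 ± 15.8 in HFD mice, log2 fold change -2.27), the mitochondrial glutamate carrier Slc25a22 (-1.56), the fumarate hydratase Fh1 (-1.10) and the liver glutaminase Gls2 (127 ± 22.8 and 78.5 ± 4.80 FPKM, -0.67). Higher were the water and ammonia channel Aqp8 (1.96), the ammonium transporter Rhbg (1.25), the mitochondrial carbonic anhydrase Car5a (0.99), which supplies bicarbonate to Cps1, and the amino acid transporter Slc1a4 (0.92). Glul, the glutamine synthetase of hepatocytes around the central vein, rose from 296 ± 34.7 to 453 ± 38.8 FPKM (log2 fold change 0.62, SE 0.09, limma adjusted p = 0.000762). It was 449 ± 29.3 FPKM in SZ-A mice, -0.01 against HFD. Rhbg had the smallest p of this list in SZ-A against HFD, at 2.004 ± 0.432 FPKM in HFD and 1.23 ± 0.217 in SZ-A mice (-0.65, limma adjusted p = 0.0961), followed by Slc1a4 (-0.84, adjusted p = 0.229).

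Of 14 tested genes of arginine and ornithine use, 4 were lower and 2 higher in HFD mice (9.49% and 10.7% of all genes). The counts were 3 and 2 without NC6, and 2 and 5 with libraries at the same FPKM sum (3.26% and 20.8% of all genes). Lower were the arginine transporter Slc7a2 (-0.83), the mitochondrial carrier Slc25a29 (-0.83), the ornithine aminotransferase Oat (1085 ± 137 FPKM in NC and 797 ± 150 in HFD mice, -0.46) and the antizyme Oaz1 (-0.40), which restrains polyamine synthesis. Higher were Ddah1 (0.80), which breaks down methylated arginines, and the proline dehydrogenase Prodh (0.45). In SZ-A against HFD, Ddah1 (-0.35, limma adjusted p = 0.348) and Oaz1 (0.14, adjusted p = 0.396) had the smallest p.

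Of 18 regulators of urea cycle genes, 1 was called lower and 0 higher in HFD against NC, beside 9.49% and 10.7% of all genes. Creb3l3, a transcription factor of hepatocytes held at the endoplasmic reticulum, was 177 ± 15.5 FPKM in NC and 145 ± 17.1 in HFD mice (-0.29, limma adjusted p = 0.0396). Without NC6 none of the 18 was called. With libraries at the same FPKM sum 2 were called higher and 0 lower, beside 20.8% and 3.26% of all genes. In SZ-A against HFD, Klf15, which drives amino acid breakdown genes, had the smallest p at 0.33 (adjusted p = 0.139), and Creb3l3 followed at 0.25 (adjusted p = 0.228). In SZ-A against NC, 1 regulator was called, Cebpb (0.57, limma adjusted p = 0.0301), named here after its value was seen. Cebpb was called higher, as were 5.31% of all genes, and 4.3% were called lower. Without NC6 no regulator was called in that comparison.

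**Figure D5:**
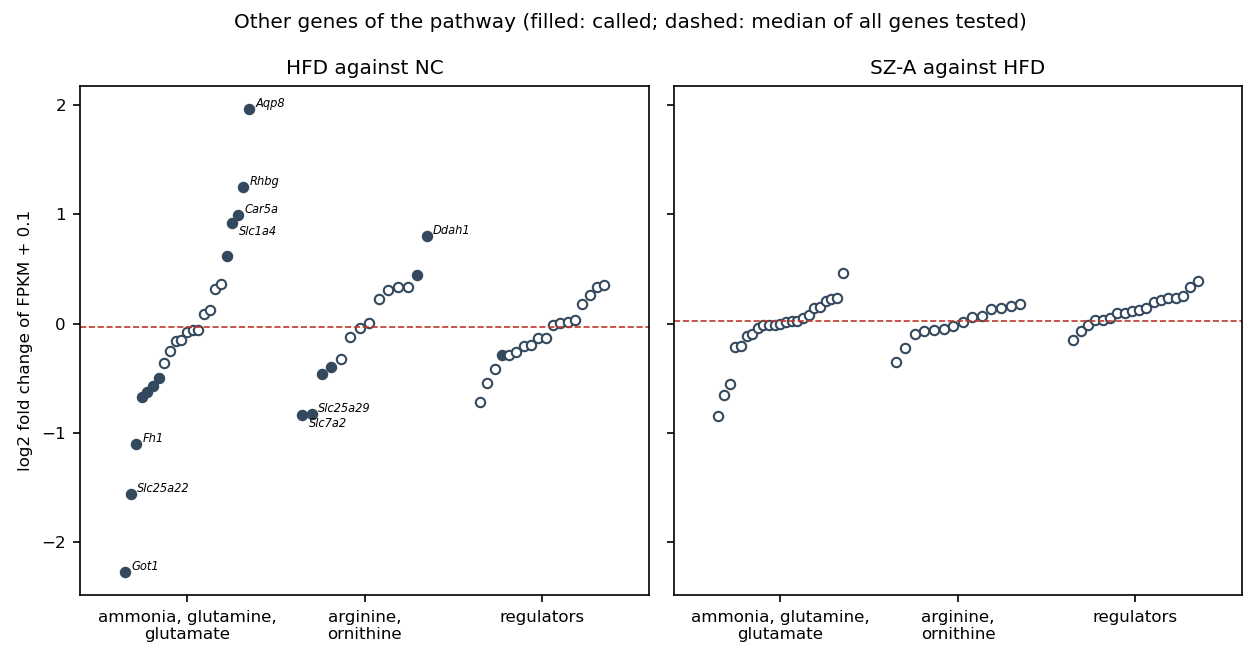
Log2 fold change of FPKM + 0.1 (vertical axis) of the 55 tested pathway genes beside the cycle, sorted within 3 lists (horizontal axis), in HFD against NC (left) and SZ-A against HFD (right). Filled points are called and the dashed line is the median of all genes tested. In HFD against NC 7 are called higher and 12 lower (10.7% and 9.49% of all genes), from Got1 at -2.27 to Aqp8 at 1.96. With libraries at the same FPKM sum 15 are called higher and 6 lower (20.8% and 3.26% of all genes). In SZ-A against HFD none is called.

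Cell type markers were counted in the same way, beside 9.49% of all genes called lower and 10.7% higher in HFD than in NC mice. Of 11 markers of hepatocytes around the portal vein, where the cycle is strongest, 7 were lower and 2 higher in HFD than in NC mice. Their summed level was 2950 to 3523 FPKM in NC mice, against 1992 to 2586 in HFD mice and 2348 to 2822 with SZ-A. A sum weighs the highest genes most. By gene, the median log2 fold change of the portal markers was -0.46 in HFD against NC and -0.61 in SZ-A against NC. In SZ-A against HFD it was -0.12, with 5 markers above 0 and 6 below. None was called there, beside 0.147% of all genes. Of 10 tested markers of hepatocytes around the central vein, 1 was lower and 3 were higher. The summed level of the 11 listed was 6129 to 7351 FPKM in NC mice, against 5952 to 8495 in HFD mice and 5716 to 9087 with SZ-A. Of 10 general hepatocyte markers, 2 were lower and 1 was higher. Their summed level was 53974 to 78718 FPKM in NC mice, against 41144 to 63129 in HFD mice and 50008 to 73740 with SZ-A. By gene, 5 of these 10 were above 0 and 5 below in HFD against NC, with a median log2 fold change of -0.03. Of 11 macrophage markers 6 were higher in HFD mice (summed level 212 to 382 FPKM in NC mice, against 367 to 585 in HFD mice and 331 to 471 with SZ-A), and of 11 stellate cell markers 7 were higher (82.1 to 115, 107 to 176 and 94.7 to 133 FPKM). Of 9 endothelial markers 1 was higher, and of the tested cholangiocyte (2 of 7), lymphocyte (0 of 8), adipocyte (2 of 6) and red blood cell (5 of 7) markers 0, 0, 1 and 0 were. Without NC6 the counts were the same except for 3 lower and 0 higher of the hepatocyte markers, 0 of the endothelial and 1 of the red blood cell markers. With libraries at the same FPKM sum, 3.26% of all genes were called lower and 20.8% higher. There 4 of the portal markers were lower and 3 higher, 0 and 5 of the central ones, and 1 and 1 of the hepatocyte markers. Of the others, 7 macrophage, 9 stellate cell, 2 endothelial, 1 adipocyte and 1 red blood cell marker were higher. No listed marker was at 0 in all mice. The part of these differences in the members' levels was not tested.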

How the data were processed

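Liver RNA of 18 mice was poly-A selected and sequenced as paired-end reads. The authors aligned reads to mm10/GRCm38 with HISAT2 2.0.5, and the submitters' notes name featureCounts 1.5.0-p3. The authors deposited 1 table of FPKM with gene lengths. How reads matching 2 genes were counted is not given in the sources used here. FPKM times length gave whole fragments for 100% of values within 0.05 of a fragment.

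Groups came from sample titles. Log2(FPKM + 0.1) was fitted with limma 3.58.1 in R 4.3.3 (lmFit, eBayes with trend) on the 2 groups compared, for 10216 genes (mean FPKM 1 or more), and p-values were Benjamini-Hochberg adjusted over all of them. The authors' count test (DESeq2) was not the main test since FPKM are no counts, and voom on whole fragments was an alternative. The fit was also run on simulated data, whose outcome is not given here, so no result rests on it. A fold change on log2(FPKM + 0.1) understates low genes. P-values set the difference between group means against the spread between mice, pooled over both groups of 6 and moderated over all genes. Other alternatives were pseudocounts of 1 and 0.01, no filter or a mean of 5 FPKM, 2 scalings, all mice in one fit, no trend, the robust option, sample weights, a replicate block, other call rules and each mouse left out. Marker and pathway counts without NC6 or with libraries at the same FPKM sum were added after seeing the data. Python 3.11.15 served for the rest.

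The members, the lists and the rule for naming genes were chosen with earlier results of these data known. Named were all members, of each of 3 pathway lists up to 4 called genes per direction and the 2 uncalled genes with the smallest p in SZ-A against HFD, Glul and Gls2, and the genes most correlated with the members.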

Additional observations from a re-analysis of the deposited data

Results flagged for a closer look

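In a screen of 48 sets of 6 values (8 members and 8 summary measures in 3 groups), 3 had a mouse set apart from its group by Dixon's 95% value for 6 samples, and chance gives about 1 in 20. Asl in NC5 was 622 FPKM, with the next NC mouse at 336. Arg1 per 100 FPKM of Ass1 in NC5 was 107, with the next NC mouse at 75.8. Slc25a15 per 100 FPKM of Slc25a13 in SZ-A5 was 75.1, with the next SZ-A mouse at 53.3.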

How the results depend on the processing

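Of 603 log2 fold changes of members under an alternative, 569 kept their direction and side of the threshold. Those that did not concern Otc, Nags and Slc25a13 and, in SZ-A against HFD, the sign of values near 0. In SZ-A against HFD, FPKM rescaled to a common sum gave -0.17 for Otc, -0.147 for Ass1, -0.082 for Arg1 and -0.143 for Slc25a15, and voom with plain library totals gave -0.105, -0.083, -0.017 and -0.078. Leaving out 1 mouse gave -0.037 to 0.079 for Otc, -0.078 to 0.109 for Ass1 and -0.0056 to 0.075 for Slc25a15. The members called in SZ-A against HFD were 1 with sample weights (Slc25a13, adjusted p = 0.0475) and 3 at an unadjusted p. Of the other pathway genes, 1 was called in SZ-A against HFD with a common sum and 4 at an unadjusted p, and 8 in SZ-A against NC with no filter. In HFD against NC, voom with plain totals also lost Nags (adjusted p = 0.186) and Slc25a13 (adjusted p = 0.112), and Otc was called with it (adjusted p = 0.00974) and with all mice in one fit (adjusted p = 0.0296). Otc in SZ-A against NC was called in 5 of 25 alternatives. The cause of these changes was not tested.

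The replicate number as a block lost Nags in HFD against NC (adjusted p = 0.0583) and changed no other call of a member. The numbers did not pair the mice: deviations of same-numbered mice correlated at -0.12 to 0.29, and 5 of 18 mice correlated best with their own number. The member with the fewest fragments, Nags, had at least 834 per mouse, and the tests cannot show differences smaller than their intervals.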
